A study of Mus musculus with 6 samples.

Results

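The 41 genes described here are Myc, the transcription factor that drives growth programmes in dividing cells, and 40 genes whose products make ribosomes. They were chosen by name: each deposited array probe was given a gene through its RefSeq accession, and the probe with the highest mean signal stood for its gene. Of the 41, 35 were among the 8582 genes whose mean log2 intensity was at least 8, an intensity of 256, and entered the main fit. The other 6, Taf1d, Dkc1, Utp20, Nop14, Rrp1b and Gnl3, were dimmer, although all 41 were well above background on all 6 arrays by the scanner software's own call. The rule that names them uses no measured value, though they were proposed with earlier results of these data known, and each had to have a bright probe to be tested.

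The arrays measured RNA from TEa cells, CD4+ T cells of C57BL/6 type with a transgenic receptor (Vα2+Vβ6+) that respond to a Balb/c graft. CD45.2+ TEa cells went into CD45.1+ B6.SJL hosts on day -1, the hosts were given a Balb/c heart on day 0, and the donor cells were sorted from spleen on day 6. There were 3 groups of 2 arrays, each array from an independent experiment and array 2 labelled as the repeat. The WT IgG group held wild-type cells from hosts labelled as given rat IgG, with no dose stated. The KO IgG group held cells labelled Irf4-/- from hosts injected with 400 µg of rat IgG on days 0, 3 and 5. The blockade group held cells labelled Irf4-/- from hosts injected on the same days with 200 µg of an antibody to PD-L1 and 200 µg of the antibody 9D9 to CTLA-4, which block inhibitory checkpoints of T cells. All hosts kept their own lymphocytes, and no group of untransplanted hosts or of WT cells with blockade was analysed here.

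Ribosomes are assembled in the nucleolus. RNA polymerase I copies the ribosomal DNA into a long precursor, small nucleolar ribonucleoproteins (snoRNPs) guide its chemical modification, and separate sets of assembly factors cut, fold and export the small and the large subunit. Myc raises transcription of many of these genes, and T cells enlarge their nucleoli and their ribosome output when an antigen drives them to divide.

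Irf4, a factor that T cells switch on after antigen contact, was read first as a check of the labels. Its log2 level was 9.61 and 9.81 in WT IgG (arrays 1 and 2), 11.21 and 11.07 in KO IgG, and 11.09 and 11.14 in blockade. The probe was therefore brighter in cells labelled Irf4-/- (log2 fold change 1.43, SE 0.13, limma adjusted p = 0.017), which goes against that label unless the probe lies outside the deleted part, and the groups are called by their labels throughout. Irf4 had 2 probes, of which this was the one with the higher mean signal, and the other is not reported here. The KO IgG arrays stood apart in faint signal: 65.8% and 75.2% of probes were well above background there, against 34.8% to 40.8% on the other 4 arrays. All 12 measured T cell markers were well above background on every array. The summed intensity of 10 B cell markers was 226 and 232 in WT IgG, 1085 and 5321 in KO IgG and 386 and 398 in blockade. That of 10 erythroid and platelet markers was 308 and 1338, 2820 and 99321, and 20521 and 12296 in the same order. That of 13 myeloid markers was 4326 and 5202, 8362 and 67873, and 4388 and 7192. On neither WT IgG array were 7 of the B cell, 7 of the erythroid and platelet and 4 of the myeloid markers well above background. On both KO IgG arrays 9, 8 and 11 of them were, and on both blockade arrays 2, 6 and 6. The part these cells play in the values of the 41 genes was not tested. In sorted populations, fewer cells of a kind and less RNA per cell cannot be told apart.

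For the main fit the 8582 bright genes were quantile-normalised among themselves, so a log2 level or log2 fold change is relative to the other bright genes. limma fitted the 3 groups together, and p-values were adjusted over all bright genes by the Benjamini-Hochberg method with a threshold of 0.05. No member passed in any comparison. Between KO IgG and WT IgG 0 of 35 members passed where 1.86% of all bright genes did, and 8 members had an unadjusted p under 0.05, which is 22.9% of the members against 23.4% of all bright genes. Between blockade and KO IgG 0 of 35 passed against a background of 0.326%, and 6 had an unadjusted p under 0.05, or 17.1% against 28.5%. Between blockade and WT IgG 0 of 35 passed against 1.11%, and 8 had an unadjusted p under 0.05, or 22.9% against 19.2%. At backgrounds this low a count of 0 among 35 members lies near the background. Polr1b, which reached the minimum of 8 only through the KO IgG arrays, is among the 8 in both comparisons with WT IgG.

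The blockade group lay a little above WT IgG over much of the list. The median log2 fold change of the 35 members was 0.21 between blockade and WT IgG, where all bright genes had 0.00, and the members ranged from -0.30 to 0.68. Both blockade arrays lay above both WT IgG arrays for 19 members, or 54.3%, against 27.7% of all bright genes, and below them for 6, or 17.1% against 27.1%. Between KO IgG and WT IgG the members' median was 0.10 against -0.02 for all bright genes, and 23 members had a positive value, or 65.7% against 47.5%. There 10 members (28.6%) lay above without overlap against 23.1% of all, and 2 (5.71%) below against 29.2%. Polr1b is counted among the 23, the 10 and the 19, although it reached the minimum of 8 only through the KO IgG arrays. Between blockade and KO IgG the median was 0.06 against 0.03, and 20 members had a positive value, or 57.1% against 53%. There 9 members (25.7%) lay above without overlap against 34% of all, and 6 (17.1%) below against 28.9%. The 3 comparisons share arrays pairwise, and the members are not replicates of a condition, so these medians and counts describe the list and carry no test.

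**Figure D1:**
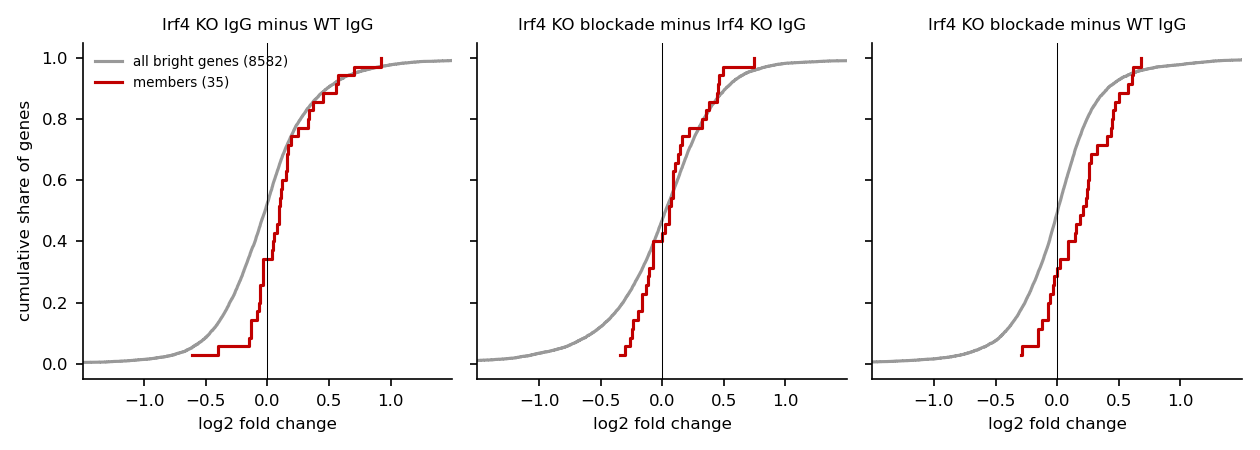
Cumulative share of genes (y axis) by log2 fold change (x axis, drawn from -1.5 to 1.5) in the 3 comparisons, for the 35 members (red) and all 8582 bright genes (grey). In the right panel the red line lies to the right of the grey line over most of the range, with medians of 0.21 and 0.00, whereas in the middle panel the medians are 0.06 and 0.03.

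**Figure D2:**
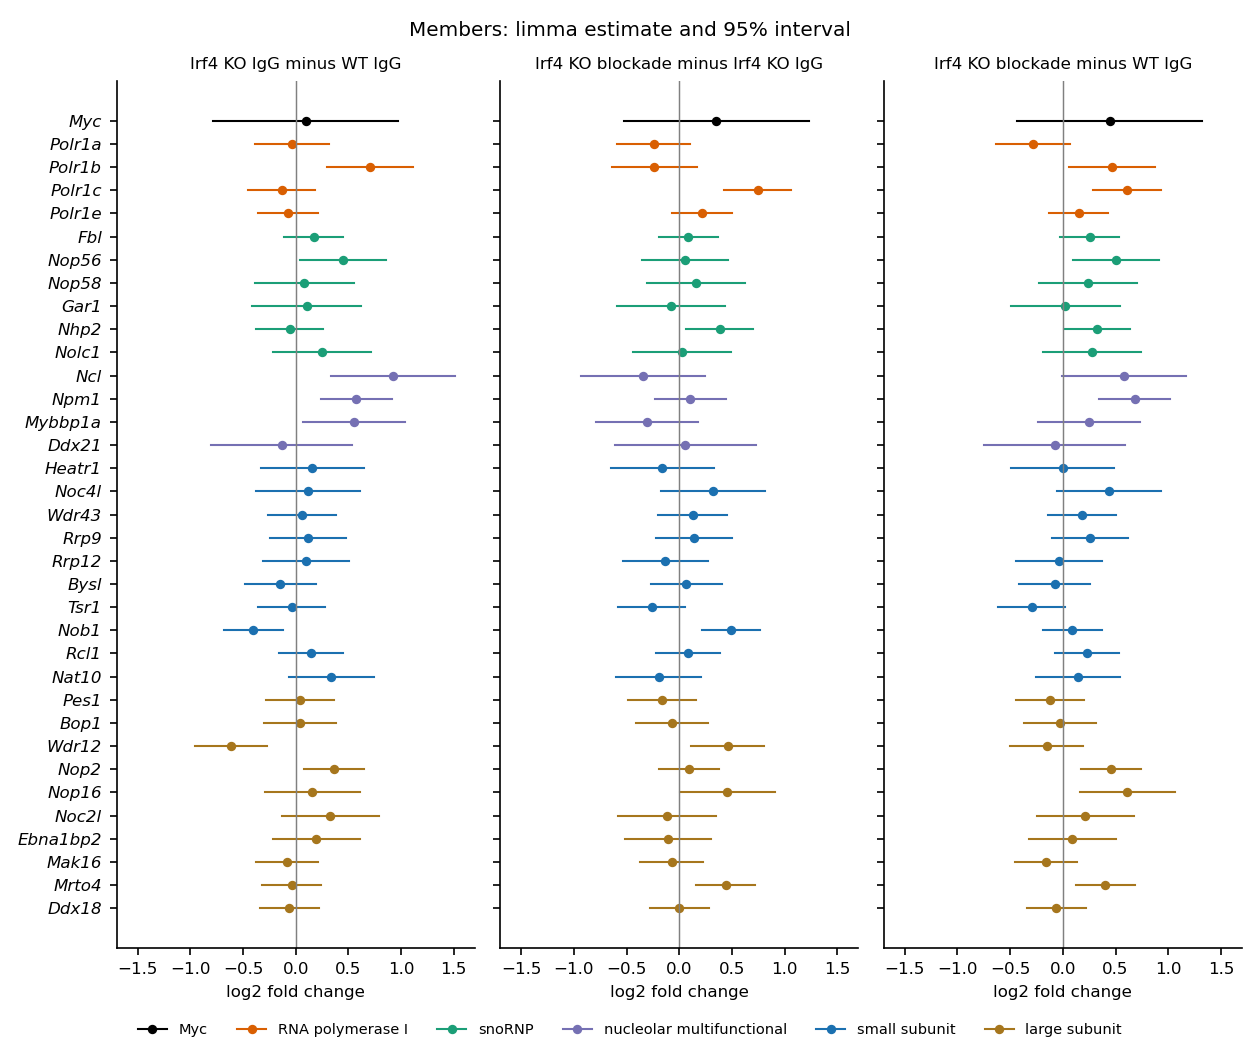
Log2 fold change (x axis) of each of the 35 members with its 95% interval from limma, in the 3 comparisons, coloured by role. The intervals are not adjusted for the number of genes, and those that leave out 0 belong to genes with an unadjusted p under 0.05, none of which passed after adjustment.

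Myc itself could not be placed. Its log2 level was 8.23 and 8.42 in WT IgG, 7.99 and 8.83 in KO IgG and 8.39 and 9.14 in blockade. The 3 groups overlapped, and the KO IgG arrays held both the lowest value and the value next to the highest. The log2 fold change was 0.09 between KO IgG and WT IgG (95% interval -0.78 to 0.97, limma adjusted p = 0.896), 0.35 between blockade and KO IgG (-0.53 to 1.23, adjusted p = 0.532) and 0.44 between blockade and WT IgG (-0.43 to 1.32, adjusted p = 0.547). A missed threshold with intervals this wide does not show that Myc was alike in the groups. With an SE of 0.35, Myc was the least precisely measured of the 35 members.

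Of the RNA polymerase I genes, 4 were tested. Polr1c, a subunit shared by RNA polymerases I and III, had log2 levels of 11.40 and 11.14 in WT IgG, 11.15 and 11.12 in KO IgG and 11.87 and 11.89 in blockade. Both blockade arrays lay above the other 4. The log2 fold change was 0.74 between blockade and KO IgG (SE 0.13, a ratio of 1.67, limma adjusted p = 0.068) and 0.61 between blockade and WT IgG (SE 0.13, adjusted p = 0.099), so neither passed. Polr1b, which with Polr1a forms the catalytic core, followed another order, with 7.75 and 7.93 in WT IgG, 8.50 and 8.59 in KO IgG and 8.12 and 8.50 in blockade. Both groups labelled Irf4-/- lay above WT IgG, by 0.70 (SE 0.16, adjusted p = 0.092) and 0.47 (SE 0.16, adjusted p = 0.215). Polr1b was the 1 member that reached the minimum only through a single group: its mean log2 intensity was 8.22 over all arrays and 7.88 without the KO IgG arrays, so its values support nothing. Polr1a, the largest subunit, had 9.79 and 10.09 in WT IgG, 9.85 and 9.96 in KO IgG, and 9.65 and 9.66 in blockade, where both arrays lay below the other 4 (-0.28 against WT IgG, 95% interval -0.63 to 0.07). Polr1e, a subunit found in polymerase I and in neither other nuclear polymerase, differed by -0.07 to 0.22 over the 3 comparisons. With Polr1b left aside, Polr1c was highest and Polr1a lowest in blockade, so the subunits of 1 enzyme did not share an order of the groups. The median of the 4 between blockade and WT IgG was 0.31. It lies between Polr1e at 0.15 and Polr1b at 0.47, so it depends on Polr1b and supports nothing either.

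The snoRNP proteins showed small shifts of 1 sign between blockade and WT IgG. All 6 that were tested had a positive log2 fold change there, from 0.02 to 0.50 with a median of 0.26, and 5 of the 6 lay above without overlap, as did 27.7% of all bright genes, but none passed. Nop56, a core protein of the box C/D particles that guide methylation, had 10.90 and 11.31 in WT IgG, 11.55 and 11.56 in KO IgG and 11.68 and 11.53 in blockade. WT IgG was the lowest group, with array 1 well under array 2, and the log2 fold changes against it were 0.45 for KO IgG (SE 0.17, limma adjusted p = 0.182) and 0.50 for blockade (adjusted p = 0.193). Fbl, the methyltransferase of the same particles, had 13.64 and 13.74, 13.82 and 13.90, and 13.98 and 13.91 in the same order of groups. Its 3 groups did not overlap, yet the whole range was 0.35 log2 units and the log2 fold change between blockade and WT IgG was 0.25 (adjusted p = 0.299). Nhp2, a core protein of the box H/ACA particles that guide pseudouridylation, was highest in blockade, with 13.09 and 13.18 against 12.70 and 12.92 in WT IgG and 12.78 and 12.72 in KO IgG (0.33 against WT IgG, adjusted p = 0.25, and 0.38 against KO IgG, adjusted p = 0.131). Gar1, its partner in those particles, had overlapping groups in all 3 comparisons. Nop58, the other scaffold of box C/D, and Nolc1, a nucleolar phosphoprotein that binds both kinds of particle, differed by 0.24 and 0.27 between blockade and WT IgG, with adjusted p of 0.543 and 0.486.

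The multifunctional nucleolar proteins held the highest estimates between the groups labelled Irf4-/- and WT IgG. Ncl (nucleolin), which binds the precursor RNA and the ribosomal DNA, had 11.98 and 12.44 in WT IgG, 12.92 and 13.34 in KO IgG and 12.97 and 12.61 in blockade. All 4 arrays labelled Irf4-/- lay above both WT IgG arrays, and KO IgG and blockade overlapped. The log2 fold change between KO IgG and WT IgG was 0.92 (SE 0.24, a ratio of 1.89), the highest among the members in that comparison, with a limma adjusted p of 0.109. Npm1 (nucleophosmin), a chaperone of ribosome export, had 13.64 and 13.80 in WT IgG, 14.33 and 14.26 in KO IgG and 14.52 and 14.28 in blockade. Here too the 4 arrays labelled Irf4-/- lay above both WT IgG arrays without overlap, by 0.58 for KO IgG (SE 0.14, adjusted p = 0.093) and 0.68 for blockade (SE 0.14, a ratio of 1.60, adjusted p = 0.086), the highest of the members between those groups. Mybbp1a, a nucleolar binding partner of Myb, had 11.57 and 11.94, 12.12 and 12.50, and 12.10 and 11.91 in the 3 groups. KO IgG lay above both other groups without overlap, by 0.56 over WT IgG (adjusted p = 0.175), while blockade overlapped WT IgG. Ddx21, an RNA helicase of the nucleolus, had 9.82 and 10.39, 9.66 and 10.28, and 10.01 and 10.05, with overlap in all 3 comparisons.

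Of the 10 tested small subunit factors, Nob1 and Tsr1 stood at the ends. Nob1, the endonuclease that makes the final cut of the small subunit RNA, had 8.86 and 8.78 in WT IgG, 8.47 and 8.36 in KO IgG and 8.91 and 8.91 in blockade. KO IgG was the lowest group without overlap, at -0.40 against WT IgG (SE 0.11, limma adjusted p = 0.123), and blockade lay 0.49 above KO IgG (SE 0.11, adjusted p = 0.077). Tsr1, a GTPase-like factor of late small subunit assembly, had 8.59 and 8.48, 8.49 and 8.51, and 8.35 and 8.13. Both blockade arrays lay below the other 4, and the -0.30 between blockade and WT IgG (adjusted p = 0.287) was the lowest of the members in that comparison.

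The other 8 small subunit factors had estimates between -0.19 and 0.44 over the 3 comparisons. Noc4l, part of an early processing complex, was highest in blockade (10.74 and 10.90 against 10.54 and 10.22 in WT IgG and 10.27 and 10.72 in KO IgG, 0.44 against WT IgG, limma adjusted p = 0.31). Nat10, which acetylates the small subunit RNA, had 0.34 between KO IgG and WT IgG (adjusted p = 0.279). Both blockade arrays lay above both WT IgG arrays for Wdr43, Rrp9 and Rcl1, at 0.18, 0.26 and 0.23, and Bysl lay below without overlap at -0.08. Heatr1 and Rrp12, a pair of large scaffold proteins, overlapped in all 3 comparisons, and the 95% interval of Heatr1 between blockade and WT IgG ran from -0.49 to 0.49.

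The 10 tested large subunit factors split. Wdr12, Pes1 and Bop1 form the PeBoW complex, which is needed to mature the large subunit RNA, and Wdr12 stood apart from its partners. Its log2 level was 10.05 and 10.04 in WT IgG, 9.29 and 9.58 in KO IgG and 9.85 and 9.94 in blockade. KO IgG was lowest without overlap, at -0.61 against WT IgG (SE 0.14, a ratio of 0.65, limma adjusted p = 0.088), the lowest value of the members, and blockade lay 0.46 above KO IgG (SE 0.14, adjusted p = 0.113). Pes1 and Bop1 both had 0.04 between KO IgG and WT IgG, with 95% intervals of -0.28 to 0.37 and -0.30 to 0.38. The difference between Wdr12 and its partners was not tested.

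Nop2, a methyltransferase of the large subunit RNA, had 10.91 and 10.92 in WT IgG, 11.20 and 11.36 in KO IgG and 11.35 and 11.39 in blockade. The 2 WT IgG arrays lay below the other 4, by 0.37 for KO IgG (SE 0.12, limma adjusted p = 0.149) and 0.46 for blockade (SE 0.12, adjusted p = 0.135). Nop16 had 8.94 and 9.06, 8.91 and 9.40, and 9.61 and 9.61, and Mrto4, a factor that keeps the place of a stalk protein on the immature subunit, had 9.96 and 9.84, 9.83 and 9.89, and 10.28 and 10.33. For both, the blockade arrays lay above the other 4, by 0.61 for Nop16 and 0.40 for Mrto4 over WT IgG (adjusted p = 0.169 and 0.153) and by 0.46 and 0.44 over KO IgG (adjusted p = 0.172 and 0.087). Noc2l lay above WT IgG without overlap in KO IgG (0.33, adjusted p = 0.347) and in blockade (0.21, adjusted p = 0.581), but its value in KO IgG was 0.60 without KO IgG array 1 and 0.077 without KO IgG array 2. Ebna1bp2 overlapped in all 3 comparisons, while Mak16 and the helicase Ddx18 lay below WT IgG without overlap in blockade, at -0.16 and -0.06. Ddx18 was the steadiest member, with a range of 0.15 log2 units over the 6 arrays, against 1.36 for Ncl and 1.15 for Myc.

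**Figure D3:**
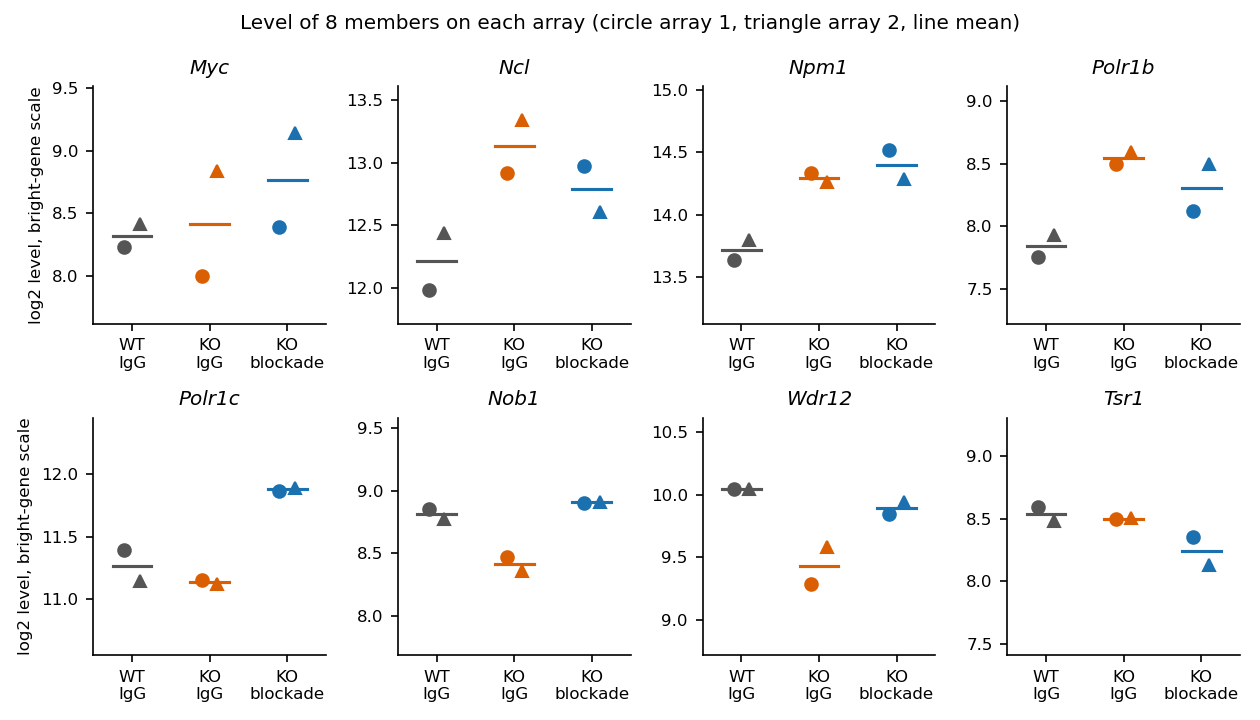
Log2 level on the bright-gene scale (y axis) of 8 members on each of the 6 arrays, by group (x axis), with circles for array 1, triangles for array 2 and a line at the mean of the group. Every panel spans the same number of log2 units, so that the spread of Myc, from 7.99 to 8.83 in KO IgG alone, can be set beside the close pairs of Polr1c and Nob1.

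The 6 members below the minimum had no test in the main fit. In a fit of the 13838 genes well above background on all arrays, where 1.94%, 1.17% and 0.137% of genes passed in the 3 comparisons, none of these 6 passed. Taf1d, a factor that helps recruit RNA polymerase I, had intensities of 192 and 228 in WT IgG, 232 and 323 in KO IgG and 294 and 206 in blockade, and its log2 fold change between blockade and KO IgG was 0.81 (SE 0.14, limma adjusted p = 0.067). Dkc1, the pseudouridine synthase of the box H/ACA particles, had 0.46 in that comparison (adjusted p = 0.134). Nop14 varied most between arrays of a group, with intensities of 69.7 and 720 in WT IgG, 129 and 308 in KO IgG and 124 and 88.0 in blockade. Its SE of 0.89 leaves no order of the groups, and Gnl3 and Utp20 had SEs of 0.38 and 0.37.

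The members' position also differed between arrays of 1 group. Taking each gene's deviation from its mean over the 6 arrays, the median over the 35 members was -0.19 and -0.05 in WT IgG (arrays 1 and 2), -0.03 and 0.12 in KO IgG and 0.10 and 0.07 in blockade. WT IgG array 1 was lowest, with 7 of 35 members above their own mean, and the pooled SD between arrays of a group was 0.08. Without WT IgG array 1 the members' median between blockade and WT IgG was 0.13, and without array 2 it was 0.25. Between KO IgG and WT IgG the median was 0.19 without KO IgG array 1 and -0.00015 without KO IgG array 2, so its size depended on which KO IgG array was kept. KO IgG array 2 was also the array with the highest summed erythroid, B cell and myeloid markers. The sum of 8 dendritic cell markers was instead highest on KO IgG array 1, at 24042 against 13240 on array 2. Of the 24042, Siglech alone gave 23793. Whether these markers bear on the median was not tested. The arrays lay in 2 rows of 1 slide, and each row held 1 array of every group. Within the rows the members' median was 0.14 and 0.24 between blockade and WT IgG, with 22 and 28 of 35 members positive. It was 0.09 and 0.06 between KO IgG and WT IgG, and -0.01 and 0.08 between blockade and KO IgG.

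Several members have more than 1 probe, and these probes did not give the same answer for the KO IgG arrays. The 41 members had 74 probes, and 23 members had at least 2. With each array centred on its bright genes' median, the dimmest probe gave a higher log2 difference between KO IgG and WT IgG than the brightest probe of the same gene in 20 of the 23, with medians of 0.69 and 0.09. Between blockade and KO IgG it was higher in 4 of 23, with medians of -0.33 and 0.08, and between blockade and WT IgG in 14 of 23, with medians of 0.35 and 0.20. All probes of a gene shared a sign in 18, 16 and 17 of the 23 in these comparisons, in that order. Ncl was among those that did not between blockade and WT IgG, with -0.27 from its faint probe and 0.63 from its bright probe. The faint probe of Rrp12 had intensities of 47.3 and 77.3 in WT IgG, 276 and 599 in KO IgG and 56.1 and 51.9 in blockade, a log2 difference of 2.54 between KO IgG and WT IgG where its bright probe gave 0.07. For Nop58 the dimmest and brightest probes gave 1.97 and 0.09, and for Mybbp1a 1.32 and 0.37. The second probe of Myc had intensities of 29.7 and 60.6, 123 and 238, and 65.0 and 46.0, and a difference of 1.80 where the brighter probe had 0.28. The higher signal of faint probes on the KO IgG arrays was thus seen within single genes, and comparisons with the KO IgG arrays depend on which probe is read.

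**Figure D4:**
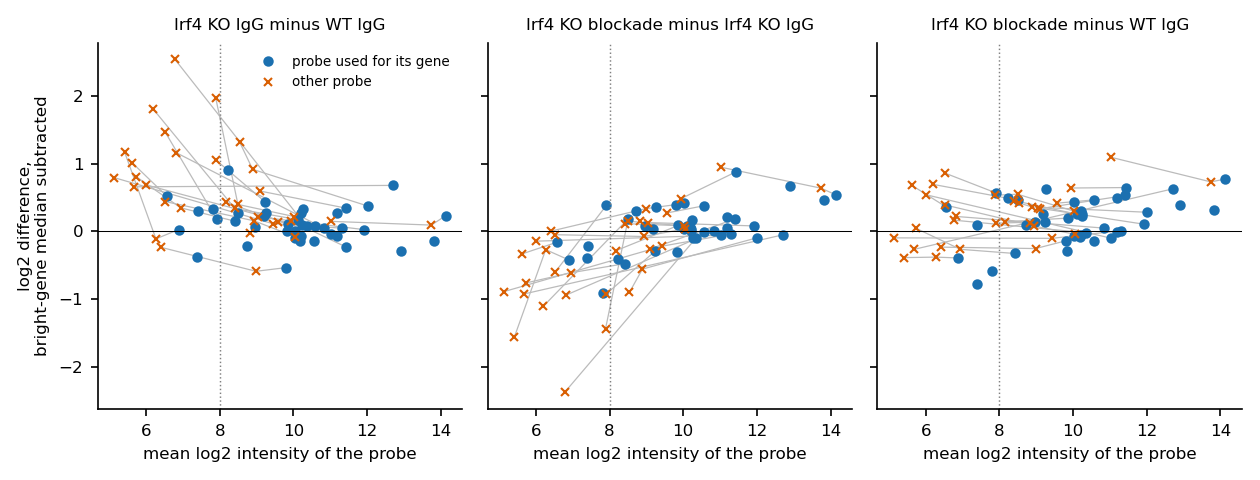
Log2 difference between groups, with the median of the bright genes subtracted on each array (y axis), against the mean log2 intensity (x axis) of the 74 probes of the 41 members. Filled circles are the probes that stand for their gene, crosses are its other probes, lines join probes of a gene and the dotted line marks the minimum of 8. Left of it most crosses lie above 0 for KO IgG against WT IgG and below 0 for blockade against KO IgG.

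The choice of scale decides the sign in both comparisons with the KO IgG arrays. When each array was scaled by its 75th percentile over all probes, as is usual for this array type, all 41 members were lower in KO IgG than in WT IgG and all 41 were higher in blockade than in KO IgG. On that scale 27 of 41 passed as lower in the former (background 27.4% of 28249 genes) and 33 as higher in the latter (background 27.9%), with medians of -0.91 and 1.05. The bright genes as a whole had medians of -1.05 and 1.09 on it, so the members lay 0.15 above and 0.04 below the bright genes. Of the 35 tested members, 23 changed sign between KO IgG and WT IgG, 15 between blockade and KO IgG, and 3 (Heatr1, Rrp12 and Bop1) between blockade and WT IgG. Wdr12 and Nob1 were lower in KO IgG than in WT IgG on both scales (-1.53 and -1.21 by the 75th percentile). They were also higher in blockade than in KO IgG on both (1.41 and 1.32). The same held for Polr1c, Polr1e, Nhp2, Ddx21, Bysl and Mrto4. Since all 41 members share these signs by the 75th percentile, a kept sign is no support for any of them. Ncl and Polr1b lay above WT IgG in KO IgG on the bright-gene scale, but had -0.31 and -0.08 by the 75th percentile. Between blockade and WT IgG the members' median was 0.22 and 0 of 41 passed by that scale, where 0% of all genes passed in either direction. The bright genes had a median of 0.05 there, so the members lay 0.17 above them.

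The DNA before and around the start of these genes was searched for CACGTG, the E-box that Myc binds with its partner Max, which reads the same on both strands. RefSeq promoter windows (mouse build GRCm38.p6, 250 bases before to 50 after the start) were matched for 35 of the 41 members, those not matched being Myc, Fbl, Npm1, Rrp12, Bop1 and Mak16. CACGTG was found in 6 of the 35 (17.1%), against 8.09% of 27025 genes in the same table. In the 250 bases before the start it was found in 1 member (2.86%), against 6.86% of genes, and in the 50 bases after the start in 5 (14.3%), against 1.28%, a split made after the matches were seen. These shares were not matched for base composition. The 6 matches are shown in windows of 30 bases, read 5′ to 3′ on the strand of the gene, with the E-box in capitals, because 5 of them lie just past the start of the transcript.
Nop2 (chr6:125131811-125131840, plus strand, first base of the E-box 60 bases before the start): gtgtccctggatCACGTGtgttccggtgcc
Pes1 (chr11:3963965-3963994, plus strand, at base 3 after the start): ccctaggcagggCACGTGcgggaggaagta
Wdr43 (chr17:71616220-71616249, plus strand, at base 18): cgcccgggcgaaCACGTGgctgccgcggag
Tsr1 (chr11:74898092-74898121, plus strand, at base 25): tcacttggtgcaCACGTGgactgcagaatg
Utp20 (chr10:88826765-88826794, minus strand, at base 38): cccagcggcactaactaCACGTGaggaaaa
Mybbp1a (chr11:72441347-72441376, plus strand, at base 41): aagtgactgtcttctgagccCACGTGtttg
The 5 of these that were tested included Nop2, above WT IgG in both groups labelled Irf4-/-, and Tsr1, the lowest member in blockade. Their median between blockade and WT IgG was 0.18, against 0.22 for the 24 tested members with a window and no E-box. The medians were 0.06 and 0.11 between KO IgG and WT IgG, and -0.16 and 0.06 between blockade and KO IgG, with 2 of 5 and 15 of 24 positive. A pair of GAAA repeats parted by NN, a pattern that interferon regulatory factors bind, was searched on both strands of the whole window and found in 0 of 35 members, against 3.99% of genes. A match is a string of letters and no measurement of binding.

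Other genes of the pathway were read from 7 lists of 173 genes, of which 141 were tested. Between KO IgG and WT IgG 3 passed, all higher in KO IgG (background of higher genes 1.14%), and 30 (21.3%) had an unadjusted p under 0.05 against 23.4% of all bright genes. Mxd1, which competes with Myc for Max and represses transcription, had 8.25 and 8.32 in WT IgG, 9.25 and 9.30 in KO IgG and 8.96 and 8.94 in blockade. It rose by 0.99 in KO IgG (SE 0.11, limma adjusted p = 0.024), but by the 75th percentile it was 0.12 (adjusted p = 0.644), and blockade lay 0.67 above WT IgG without passing (adjusted p = 0.067). Nle1, a large subunit factor, had 7.75 and 7.996, 9.15 and 9.61, and 8.12 and 7.93. It rose by 1.504 in KO IgG (SE 0.20, adjusted p = 0.036). It reached the minimum of 8 only through the KO IgG arrays, since its mean log2 intensity over the other 4 was 7.73, so this call is open to the filter, although it also passed with a minimum of 7 (1.47, adjusted p = 0.044). By the 75th percentile it was 0.66 (adjusted p = 0.085), and on the main scale the -1.36 between blockade and KO IgG did not pass (adjusted p = 0.054). Srm, the spermidine synthase and a known Myc target, had 10.19 and 10.22, 10.90 and 10.89, and 10.90 and 10.89. The 4 arrays labelled Irf4-/- were thus nearly equal on the probe used. A dimmer probe of Srm had intensities of 904 and 2068 in KO IgG, where the probe used had 1748 and 2714. Srm rose by 0.69 in KO IgG (SE 0.11, adjusted p = 0.047), but was lower there by the 75th percentile (-0.36, adjusted p = 0.207). With the mean of its probes the rise was 0.60 and did not pass (limma adjusted p = 0.11). It also did not pass with normexp, among genes well above background on all arrays or with the slide row as a block (adjusted p = 0.069, 0.063 and 0.068). The 0.69 between blockade and WT IgG did not pass (adjusted p = 0.058). Without KO IgG array 1 only Nle1 passed, and without each of the other arrays 0 did, in fits with fewer arrays, while the log2 fold changes ran from 0.94 to 1.03 for Mxd1, 1.29 to 1.76 for Nle1 and 0.67 to 0.71 for Srm. Mxd1 and Nle1 have mean log2 intensities of 8.82 and 8.39, near the minimum, in a range where 2.27% of all bright genes passed as higher in KO IgG, against 0.213% of those above 12.

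No gene of these lists passed in the other comparisons in limma, where 33 (23.4%, against 28.5% of all bright genes) had an unadjusted p under 0.05 between blockade and KO IgG and 22 (15.6%, against 19.2%) between blockade and WT IgG. Of the 7 tested Myc network factors, 5 were lower in blockade than in KO IgG without overlap (71.4% against 28.9% of all bright genes). Their list had a median of -0.34 on the bright-gene scale, with Mnt at -0.85 and Mga at -0.72. Only Mxd4 and Mlx (0.62) were higher in blockade. Between blockade and KO IgG the smallest p of the remaining lists belonged to Mxd4, another antagonist of Myc (0.73, adjusted p = 0.072), Polr1d, a subunit shared by polymerases I and III like Polr1c (0.67, adjusted p = 0.074), Utp23 (0.46, adjusted p = 0.082), Pih1d1 (0.47, adjusted p = 0.079), C1d (0.43, adjusted p = 0.085) and Ran (0.62, adjusted p = 0.073). Between blockade and WT IgG they belonged to Polr1d (0.34, adjusted p = 0.261), Ddx49 (0.30, adjusted p = 0.24), Ddx24 (-0.58, adjusted p = 0.128), Ruvbl1, an ATPase of snoRNP assembly (0.57, adjusted p = 0.1), and Dis3 (0.66, adjusted p = 0.236). Between KO IgG and WT IgG the lists without a passing gene were led by Polr2h (-0.65, adjusted p = 0.095), Emg1 (-0.38, adjusted p = 0.148), Rpap3 (0.66, adjusted p = 0.164) and C1d (-0.39, adjusted p = 0.121). Between blockade and WT IgG the 141 genes had a median of 0.08, with 57 (40.4%) above and 20 (14.2%) below without overlap, where all bright genes had 27.7% and 27.1%. The 26 tested Myc targets outside the nucleolus had the highest median of the 7 lists in that comparison, 0.23, with 20 positive. The 35 members had 0.21 with 24 positive (68.6%), beside 0.00 and 50.6% for all bright genes. The other list medians were 0.15 for other snoRNP genes, 0.11 for exosome and rRNA trimming genes and 0.08 for other small subunit genes. They were 0.05 for other large subunit genes, 0.02 for other RNA polymerase I genes and -0.12 for Myc network factors.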

How the data were processed

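According to the labels' protocols, the authors used 0.5 µg of RNA for Cy3 labelling. The scans were quantified with Agilent Feature Extraction 11.0.1.1 per the file headers, whereas the submitters' processing notes name 9.1. The deposited intensity is the scanner's processed signal, background-subtracted and not scaled between arrays. In the deposited value table that intensity is divided by 1 number per array.

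Of 56605 probes, 1234 lacked a usable spot on at least 1 array and were dropped. The log2 intensity was averaged over a probe's spots, and 58.3% of the probes used were named through RefSeq accessions. Bright genes were quantile-normalised and fitted with limma 3.58.1 in R 4.3.3 (3 residual degrees of freedom), a procedure tested on simulated data. The precision is limited by 2 arrays a group. The members, the gene lists and the bright-gene scale were chosen with earlier results of these data known. Per-array values are given for Myc, for the highest and lowest member of each comparison, for the leading genes of each list and for further members chosen after their values were seen. Replicate numbers were not used as pairs, since deviations of same-numbered arrays correlated at 0.02, -0.20 and 0.03. The -0.20 is for WT IgG with blockade, whose same-numbered arrays lay in different rows of the slide. Those of KO IgG and blockade, at 0.03, also lay in different rows. With the slide row as a block no member passed in limma and no member's log2 fold change changed sign.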

Additional observations from a re-analysis of the deposited data

How the results depend on the processing

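No member passed in limma under 17 of 19 alternatives between KO IgG and WT IgG and between blockade and KO IgG, or under 18 of 19 between blockade and WT IgG. The exceptions were the 75th percentile scale and a scale by each array's median over the bright genes. On the latter 1 (Polr1b), 2 (Polr1c and Nhp2) and 1 (Npm1) passed and pathway genes numbered 5 between blockade and KO IgG and 1 between blockade and WT IgG. Polr1b reached the minimum only through the KO IgG arrays, so its call supports nothing. Between blockade and WT IgG the members' median stayed between 0.13 and 0.25. On the 75th percentile scale 27 members passed as lower in KO IgG than in WT IgG (median -0.91, Myc -0.72) and 116 pathway genes passed. There Fbl was at -1.14, Nop58 -0.90, Gar1 -0.95, Npm1 -0.76, Heatr1 -0.94, Noc4l -0.91, Wdr43 -0.88, Rrp9 -0.77, Rrp12 -0.92, Rcl1 -0.82, Pes1 -1.04, Bop1 -1.05, Nop2 -0.72, Ebna1bp2 -0.97 and Srm -0.36. Between blockade and KO IgG 33 members (median 1.05) and 124 pathway genes passed, with Polr1a at 0.71, Gar1 1.02, Ncl 0.96, Mybbp1a 0.92, Heatr1 0.98, Rrp12 0.92, Pes1 0.96, Bop1 1.06, Noc2l 0.92, Ebna1bp2 1.09, Mak16 1.01, Ddx18 1.02 and Irf4 1.11. The bright genes' shift on that scale, given in the report, moves all of these together. Between KO IgG and WT IgG the 3 pathway genes became 1 with minimums of 9 or 10 (fewer genes tested) or normexp, and 0 with the 4 arrays compared (fewer samples) or with the replicate block. The replicate block changed no member's call. Between blockade and WT IgG 1 pathway gene passed with cyclic loess and with minimums of 9 and 10. Myc was at -0.020 between KO IgG and WT IgG among genes well above background on all arrays. Without each array in turn, the median between KO IgG and WT IgG ran from -0.00015 to 0.19, Myc from -0.33 to 0.52 and pathway genes from 0 to 1, the 1 being without KO IgG array 1. Between blockade and KO IgG the median ran from -0.049 to 0.11, Myc from -0.071 to 0.78 and pathway genes from 0 to 1, the 1 being without KO IgG array 2. The cause was not tested for any of these. The promoter window of 250 bases before the start held the E-box in 1 member.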
